A study of Mus musculus with 3 samples.

Results

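Muscle stem cells, also called satellite cells, and the myoblasts that derive from them were examined in single-cell RNA sequencing of injured mouse muscle. A cell was taken as a member when its UMIs (unique molecular identifiers, counts of captured transcripts) of Pax7, Myf5 and Cdh15 summed to at least 3, with Myog under 2, Pdgfra under 2 and neither Ptprc nor Pecam1 detected. Barcodes needed at least 500 detected genes and a mitochondrial share under 10%. The members numbered 596 of 35247 such cells, namely 233 of 11403 for young PBS, 117 of 11058 for old PBS and 246 of 12786 for old rMETRNL.

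The muscle was tibialis anterior of C57/BL6J mice, collected 4 days after damage with BaCl2. Young PBS mice were 3 to 4 months old, and the old mice of both old groups were 24 to 26 months old. Muscles received 3 injections of either PBS, the vehicle, or recombinant METRNL (rMETRNL), the secreted protein meteorin-like. Each group was 1 library made from a suspension that pooled 3 samples, without sorting of muscle stem cells. There were therefore no replicates and no test between groups, and every interval given is a 95% interval that covers counting error only. Old PBS over young PBS is the age comparison and old rMETRNL over old PBS is the treatment comparison. Where 3 values follow each other they are for young PBS, then old PBS, then old rMETRNL. Both comparisons use the old PBS library, so that a high or low value there moves both ratios, in opposite directions.

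Satellite cells lie between the muscle fibre and its basal lamina and are quiescent in resting muscle. After injury they are activated, divide as myoblasts, and either commit to differentiation under Myod1 and Myog and fuse into fibres or return to quiescence. Pax7 is the transcription factor that defines the lineage, Myf5 is an early myogenic transcription factor, and Cdh15 encodes M-cadherin, an adhesion protein of muscle cells.

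The members were chosen by their UMIs of Pax7, Myf5, Cdh15, Myog, Pdgfra, Ptprc and Pecam1, so that the levels of these genes are a description. Levels are UMIs scaled to a common total over the members of a library (CPM), and since the assay tags transcript ends they are compared between libraries and not between genes. Pax7 was at 134, 105 and 109 CPM. Myf5 stood at 166, 129 and 139 CPM, and Cdh15 at 452, 358 and 322. All 3 genes were highest in young PBS. Summed per member, their UMIs had a median of 21, 15 and 16, and at least 12 marker UMIs were found in 82.0%, 65% and 63.8% of members. Just inside the marker threshold, 3, 7 and 12 members had a sum of 3, and just outside it, 4, 3 and 13 cells that met the other conditions had a sum of 2. A Myog UMI was found in 30, 7 and 27 members, and 11, 7 and 12 otherwise fitting cells were outside with 2.

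Fgfr4, Des and Itga7, which the rule did not use, were detected in each library. Fgfr4, a fibroblast growth factor receptor of myogenic cells, was at 86.9, 89.4 and 74.5 CPM. Des, the intermediate filament protein desmin, was at 781, 787 and 756 CPM, and Itga7, the laminin receptor subunit of muscle cells, at 164, 173 and 162. These levels differed little between the libraries. Over all libraries, the 15 genes of at least 100 CPM that most exceeded the other kept cells were led by the rule genes Myf5, Pax7 and Cdh15, whose excess the rule fixed. The others were Asb5 (28.6 times), Capn6, Sox11, Peg3, Met, Itga7, Gal, Cdh2, Ptprd, Tubb2b, Ncam1 and Phgdh (10.6 times). Of these, Met is the receptor for hepatocyte growth factor and Ncam1 and Cdh2 are adhesion proteins of myogenic cells.

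The members had median UMI counts of 26446, 25392 and 28688.5 per cell, and 4990, 4908 and 5124 genes, so that depth per cell was close. Median mitochondrial shares were 6.53%, 6.65% and 5.53%. Between pairs of libraries 58 to 80 barcodes were shared, but no pair of members shared one. Markers of other cell types took a median of 0.206%, 0.223% and 0.207% of a member's UMIs. Of 12 macrophage markers, the 10 with enough UMIs were all higher in old PBS than in young PBS, and the list summed to 727, 968 and 1095 CPM, against 25250 over all other cells. The defining macrophage markers Csf1r and Adgre1 were at 2.86 to 6.0 CPM in the members. Endothelial markers summed to 7.44 to 8.45 CPM. Markers of mature fibre summed to 543, 993 and 380 CPM, and those of fibro/adipogenic progenitors (FAPs) to 1250, 1026 and 891.

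Muscle stem cells and myoblasts were scarcer among the cells of old PBS than in either other library. They made up 2.04% (1.79 to 2.32), 1.06% (0.876 to 1.27) and 1.92% (1.69 to 2.18) of kept cells. The old PBS share was 0.518 (0.411 to 0.649) times that of young PBS, and the old rMETRNL share was 1.82 (1.45 to 2.29) times that of old PBS. The interval of old rMETRNL over young PBS, 0.942 (0.784 to 1.13), held 1. A share among all cells also moves with the number of immune cells, which made up most of each library. Among cells without a Ptprc UMI (Ptprc encodes the immune cell surface protein CD45), the shares were 6.98%, 3.16% and 5.91%, and the ratios were 0.452 (0.359 to 0.567) with age and 1.87 (1.5 to 2.35) with treatment. With a stricter limit of under 5% mitochondrial UMIs and at least 1000 genes, which left 50, 22 and 88 members, old rMETRNL over old PBS was 3.24 and old rMETRNL over young PBS 1.65.

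Myog-high muscle cells, which met the same marker conditions but had at least 2 Myog UMIs, numbered 126, 36 and 85. These more committed cells were thus also fewest in old PBS.

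Division was common among the members of all 3 libraries. After each cell was thinned to 5000 UMIs, a cell was called cycling when it held at least 3 UMIs over 10 G2/M genes. Cycling members were 110 of 232 (47.4%, 40.8 to 54.1), 51 of 114 (44.7%, 35.4 to 54.3) and 119 of 241 (49.4%, 42.9 to 55.9). The share of cycling members was not distinguishable between the libraries at this number of cells, with ratios of 0.944 (0.663 to 1.33) for age and 1.1 (0.789 to 1.56) for treatment. No UMI of the 10 genes was found in 32.8%, 32.5% and 35.7% of members. Near the threshold, 46, 26 and 36 members had 1 or 2 UMIs, and 19, 7 and 19 had 3 or 4. Without thinning, 73.4%, 63.2% and 67.1% passed it. In the Ptprc-positive cells the thinned share was 12%, 10.5% and 13.6%, with median depths of 14330, 14841.5 and 14523 UMIs.

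DNA replication genes, which the cycling call did not use, went with it. At least 5 UMIs over the G1/S list were found in 73.6%, 70.6% and 79.0% of cycling members, against 10.5%, 10.8% and 3.49% of members without a G2/M UMI. In the whole class, none of 22 G1/S genes differed by at least 1.5-fold in either comparison, among them Pcna, the replication clamp, at 137, 159 and 155 CPM, and Rrm2, a ribonucleotide reductase subunit, at 178, 187 and 197. Of 24 G2/M genes, 1 was higher by at least 1.5-fold with age, Ccnf (cyclin F, 11.9, 21.6 and 19.0 CPM), and none with treatment. Over all 9370 genes with at least 100 UMIs, 3.54% were higher and 3.85% lower with age by that fold, and 3.19% were higher and 3.87% lower with treatment. The median log2 ratio of the G2/M list was 0.03 with age and 0.13 with treatment, beside 0.01 and 0.00 over all genes.

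The Myog-high muscle cells differed from this. Their cycling share was 47.6% (38.7 to 56.7), 22.2% (10.1 to 39.2; 8 of 36 cells) and 48.2% (37.3 to 59.3). In these cells 19 of 24 G2/M genes were lower by at least 1.5-fold with age (7.43% of all genes were), and 23 of 24 were higher with treatment (8.45% of all genes). The difference between the classes was not tested, since each class had 1 library per group.

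**Figure D1:**
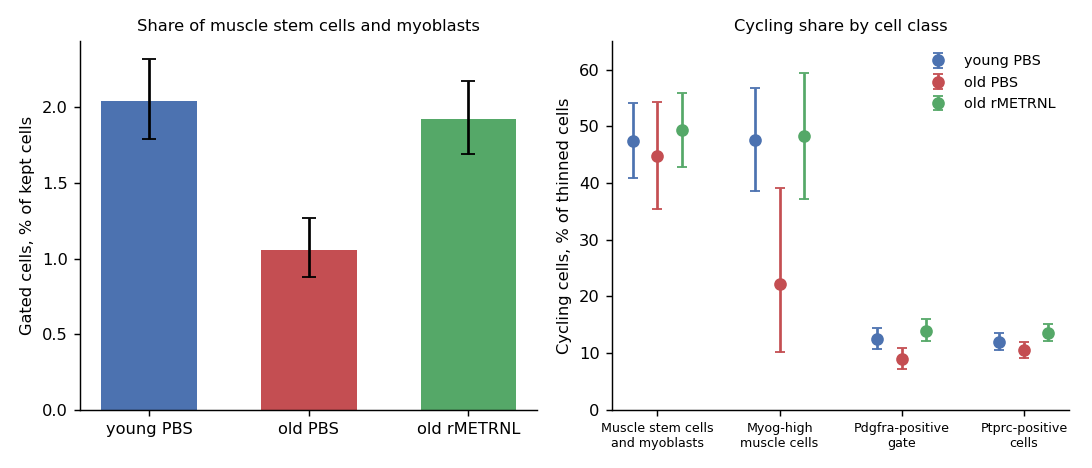
Share of muscle stem cells and myoblasts among kept cells (left, bars, %) and share of cycling cells after thinning to 5000 UMIs in the members and 3 other classes (right, points, %), by library, with exact 95% binomial intervals. The old PBS bar lies at 1.06% against 2.04% and 1.92%, while the members' cycling shares lie at 44.7% to 49.4% in all libraries.

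Several genes of quiescence and of the satellite cell state were lower in cycling than in not cycling members of each library, namely 9, 10 and 12 of 17 quiescence genes and 11, 13 and 10 of 21 satellite cell identity genes by at least 1.5-fold, where 16.9%, 21% and 21.8% of all genes were. This is a description, since the same cells defined the split, and not cycling here means no UMI of the 10 G2/M genes. Cdkn1c, the cell cycle inhibitor p57, was at 125 CPM in cycling and 812 CPM in not cycling members of young PBS, at 76.5 and 530 CPM for old PBS, and at 57.4 and 447 CPM for old rMETRNL. Chodl, a lectin-like membrane protein on the list of satellite cell genes, was at 3.604 and 53.6 CPM, 7.45 and 72.5 CPM, and 2.53 and 53.6 CPM, with the cycling members first in each pair. Both were far lower in the cycling members of every library. Vcam1, a surface protein used to isolate satellite cells, was at 138 and 341 CPM, 168 and 571 CPM, and 156 and 362 CPM. The quiescence gene Tenm4, a teneurin, had ratios of cycling over not cycling of 0.103 (0.0529 to 0.189), 0.218 (0.0938 to 0.483) and 0.121 (0.0664 to 0.210).

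The rule genes Pax7 and Myf5 were also lower in cycling members. Pax7 was at 99.8 and 200.04 CPM, 86.0 and 119 CPM, and 73.6 and 169 CPM, and its ratio in old PBS, 0.725 (0.558 to 0.946), was the nearest to 1. In the other direction, Ccnd1, cyclin D1 of the G1 phase, was at 168 and 61.1 CPM, 144 and 54.1 CPM, and 225 and 49.1 CPM. Ncl, the ribosome biogenesis protein nucleolin, was 2.22 (2.10 to 2.36), 1.73 (1.60 to 1.87) and 2.33 (2.21 to 2.46) times as high in cycling members, and Ldha, lactate dehydrogenase A, 2.11 (1.94 to 2.28), 2.20 (1.91 to 2.54) and 2.21 (2.05 to 2.40) times. Itga7 differed little, with ratios of 0.823 (0.719 to 0.944), 1.12 (0.905 to 1.39) and 0.837 (0.735 to 0.955).

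As groups, matrix and basal lamina genes were lower in cycling members for 20, 19 and 24 of 25 genes by at least 1.5-fold, beside the same 16.9%, 21% and 21.8% of all genes. Of 17 glycolysis genes, 9 in each library were higher, where 18.6%, 19% and 19% of all genes were. Cycling members were also larger in UMIs, with medians of 37701.5, 39099 and 40511 against 21274.5, 18662 and 18578.5 in not cycling members. The part of this depth in the levels was not tested, and CPM scales each set to its own total.

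**Figure D2:**
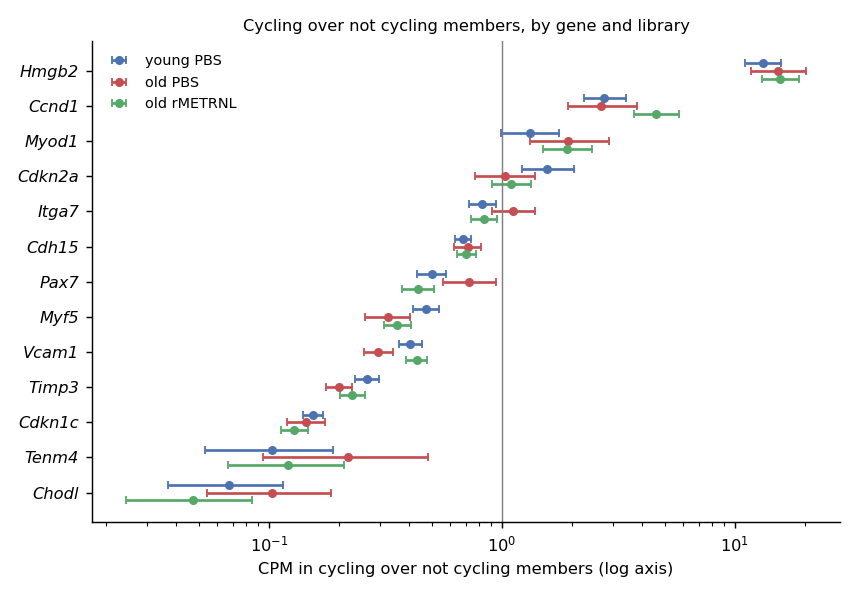
Ratio of CPM in cycling over not cycling members for 13 genes (log axis) in each library, with exact 95% intervals of the ratio, where the line marks equal levels. Hmgb2 and Ccnd1 lie to the right of the line in every library, and Vcam1, Timp3, Cdkn1c, Tenm4 and Chodl lie to the left.

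Satellite cell identity genes varied little with age or treatment. Of 21 measured members, 1 was higher with age by at least 1.5-fold and none lower, and with treatment none was higher and 1 lower. Both were Chodl, at 19.2, 33.0 and 16.3 CPM, giving ratios of 1.72 (1.33 to 2.22) and 0.494 (0.379 to 0.643). Chodl is not particular to the members, since cells positive for Tnmd, a tenocyte gene, held it at 65.2, 93.1 and 65.9 CPM, also highest in old PBS. Vcam1 was at 199, 281 and 219 CPM, a ratio of 1.41 (1.3 to 1.54) with age and 0.781 (0.720 to 0.846) with treatment. The old PBS members thus held the highest level of each. The list's median log2 ratio was 0.08 with age and -0.09 with treatment. Peg3, an imprinted zinc finger gene of muscle stem cells, was at 611, 647 and 580 CPM.

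Quiescence genes had medians of -0.04 with age and -0.27 with treatment over 17 measured members. The treatment median turned to 0.22 in the 50, 22 and 88 members that passed the stricter limit on genes and mitochondrial UMIs, and it was -0.48 in cycling and 0.10 in not cycling members. With age 1 member was higher and 2 were lower by at least 1.5-fold, and with treatment likewise 1 was higher and 2 lower. Cd34, a surface glycoprotein of quiescent satellite cells and of other cell types, was at 6.41, 16.8 and 11.4 CPM, and was the 1 higher with age (2.62, 1.75 to 3.95). Its age ratio was 1.67 (0.916 to 3.02) in cycling and 2.08 (0.792 to 5.39) in not cycling members, and both intervals held 1. Lower with age were Pdk4, a kinase that restrains pyruvate dehydrogenase, at 35.5, 23.4 and 38.4 CPM, and Rgs2, a regulator of G protein signalling, at 10.6, 6.90 and 9.75 CPM. Pdk4 was also the 1 higher with treatment. Cdkn1c was at 346, 266 and 202 CPM, lower in old PBS than in young PBS and lower again in old rMETRNL, giving ratios of 0.771 (0.714 to 0.833) and 0.759 (0.699 to 0.825). Tgfbr3, a coreceptor for TGF beta, was at 18.7, 25.2 and 15.3 CPM and was among the 2 lower with treatment.

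The other was Notch3, a receptor of the Notch pathway, which holds satellite cells in quiescence. Notch3 was at 94.4, 121 and 78.8 CPM, a ratio of 1.28 (1.13 to 1.45) with age and 0.651 (0.573 to 0.740) with treatment. Notch1, another receptor, was at 84.5, 101 and 73.2 CPM. Both receptors were highest in old PBS, whereas the Notch target genes Heyl (104, 85.2 and 74.1 CPM) and Hes1 (127, 119 and 99.2 CPM) were highest in young PBS. This order of the targets was not seen in cycling members, where Heyl was at 65.3, 69.1 and 49.4 CPM and Hes1 at 123, 125 and 85.8 CPM. Of 15 Notch genes, 1 was lower and none higher with age by 1.5-fold, and 1 was lower and 1 higher with treatment.

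Cyclin D and the inhibitors of its kinases did not move as a group, with 1 of 15 genes lower with age and 1 higher with treatment. The former was Cdkn2b, the inhibitor p15, at 15.4, 7.20 and 10.1 CPM (0.467, 0.288 to 0.731, with age). The latter was Ccnd1, at 125, 103 and 168 CPM (1.64, 1.45 to 1.85, with treatment). Cdkn2a, whose products p16 and p19 accumulate in senescent cells, was at 61.2, 82.8 and 80.9 CPM, a ratio of 1.35 (1.16 to 1.57) with age and 0.977 (0.847 to 1.13) with treatment. Cdkn1a, the inhibitor p21, was at 181, 228 and 223 CPM. Both inhibitors were thus above young PBS in both old libraries, by less than 1.5-fold.

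Myod1, the factor of myogenic activation, was chosen after its values were seen. It was at 48.3 CPM (43.4 to 53.6), 65.7 (57.3 to 75) and 70.2 (64.4 to 76.3). After thinning, cells with a Pax7 UMI and no Myod1 UMI were 41.4%, 38.6% and 31.5% of members, and cells with Myod1 and no Pax7 were 7.76%, 7.02% and 12%. The intervals of the 3 libraries overlapped for both states. Members with a Myod1 UMI, 34, 14 and 46 cells, had less Cdkn1c than the rest in each library, with ratios of 0.316 (0.265 to 0.374), 0.172 (0.113 to 0.252) and 0.315 (0.261 to 0.378). They also had less Heyl, with ratios of 0.525, 0.415 and 0.471, and more Ccnd1, at 336 against 85.2 CPM, 226 against 80.4 and 258 against 143.

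Of 23 measured commitment and fusion genes, 3 were higher and 4 lower with age, and 1 was higher and 3 lower with treatment. Chrna1, the acetylcholine receptor subunit, was at 290, 202 and 282 CPM (0.696, 0.637 to 0.759, with age and 1.40, 1.28 to 1.53, with treatment). Tnnt1, slow troponin T, was at 182, 106 and 108 CPM, and so lower in both old libraries (0.583, 0.517 to 0.656, with age). Ttn, the sarcomere protein titin, was at 664, 604 and 790 CPM. The fibre genes Acta1 (skeletal actin, 72, 295 and 54.5 CPM) and Ckm (creatine kinase, 18.8, 95.1 and 10.01 CPM) were highest in old PBS, but 1 cell held 64.6% of the Acta1 UMIs and 77.6% of the Ckm UMIs there. Both genes mark mature fibre, and without the members of high UMI count or with RNA of other types the treatment ratio of Ckm turned, to 0.47 on the log2 scale.

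Receptors for the growth factors and cytokines of injured muscle had a median log2 ratio of 0.11 with age and -0.22 with treatment over 23 members. Osmr, the receptor of oncostatin M, a cytokine that acts on satellite cells, was the 1 higher with age by 1.5-fold. It was at 26, 48.3 and 27.8 CPM, giving ratios of 1.85 (1.49 to 2.30) and 0.576 (0.468 to 0.711). Old PBS stood apart, but in the 50, 22 and 88 members that passed the stricter limit on genes and mitochondrial UMIs the log2 ratio with treatment was 0.09. Met was at 111, 119 and 116 CPM and Tnfrsf12a, the receptor of the cytokine TWEAK, at 355, 361 and 377, with all intervals of their ratios holding 1. Kit, a receptor tyrosine kinase described as a receptor of meteorin-like in endothelial cells, had no UMI in the members of any library, which allows up to 3 counts in each.

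Of the 14 gene lists, interferon response genes had the median ratio farthest from 1 in both comparisons. Interferons act through cell surface receptors and interferon regulatory factors to switch on antiviral genes and antigen presentation. Of 21 measured members, all were below young PBS in old PBS, 16 of them by at least 1.5-fold, with a median log2 ratio of -1.16. With treatment, 10 of 21 were higher by that fold, none lower, and the median was 0.58. As reported and over 14 alternative ways of processing these medians ranged from -1.31 to -0.72 with age and from 0.42 to 0.77 with treatment. In old rMETRNL against young PBS the median was -0.35.

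The promoters of 4 of these genes are shown because they hold the letters GAAA, any 2 bases and GAAA again, or TTTC, any 2 bases and TTTC on the other strand, a form of the element that interferon-activated factors bind. The 250 bases before the transcript start were read from RefSeq (GRCm38.p6), 5′ to 3′ on the gene's strand, and capitals mark the matches, which may overlap. Isg15 (chr4:156200819-156201068, minus strand) has 3 overlapping matches, from 78 to 56 bases before the start. Ifit1 (chr19:34640639-34640888, plus strand) has 2, as does Ifit3 (chr19:34583279-34583528, plus strand), and Bst2 (chr8:71537473-71537722, minus strand) has 2 that overlap.
Isg15: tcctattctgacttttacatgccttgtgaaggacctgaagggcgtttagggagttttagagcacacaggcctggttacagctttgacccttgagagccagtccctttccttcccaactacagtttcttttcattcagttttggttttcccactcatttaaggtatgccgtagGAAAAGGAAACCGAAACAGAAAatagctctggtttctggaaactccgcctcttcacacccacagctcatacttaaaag
Ifit1: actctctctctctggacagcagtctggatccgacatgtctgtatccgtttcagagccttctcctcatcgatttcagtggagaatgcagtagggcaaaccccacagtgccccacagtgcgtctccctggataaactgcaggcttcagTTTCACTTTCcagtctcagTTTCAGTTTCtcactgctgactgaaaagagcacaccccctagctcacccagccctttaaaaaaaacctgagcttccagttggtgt
Ifit3: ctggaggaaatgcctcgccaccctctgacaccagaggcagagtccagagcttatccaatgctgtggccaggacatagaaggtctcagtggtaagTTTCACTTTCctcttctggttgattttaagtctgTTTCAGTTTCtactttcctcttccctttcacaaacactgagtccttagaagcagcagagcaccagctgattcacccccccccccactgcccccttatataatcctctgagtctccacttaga
Bst2: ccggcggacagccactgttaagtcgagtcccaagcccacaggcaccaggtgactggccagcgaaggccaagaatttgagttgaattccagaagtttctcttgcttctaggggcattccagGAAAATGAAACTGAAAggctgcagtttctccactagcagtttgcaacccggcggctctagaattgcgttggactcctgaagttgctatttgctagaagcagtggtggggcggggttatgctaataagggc
A match was found in 8 of 19 interferon response genes with a promoter in the table (42.1%), and in 936 of 27025 genes in all (3.46%). In no other list did more than 1 gene have one. The 8 genes with a match had a median log2 ratio of -1.68 with age, the 10 measured genes without one -0.60, and the 3 genes with no promoter in the table -1.57. A match describes these letters and not a bound site, and the list's higher share comes with choosing genes known to respond to interferon. The relation of a match to the change was not tested.

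Isg15, a ubiquitin-like protein, and several others below were chosen after their values were seen. Isg15 was at 65.7 CPM (59.98 to 71.9), 12.6 (9.08 to 17.0) and 56.6 (51.4 to 62.1), ratios of 0.192 (0.136 to 0.263) with age and 4.49 (3.27 to 6.32) with treatment. The antiviral gene Ifit1 was at 26.6, 4.50 and 20.8 CPM, and Ifit3 at 16.5, 2.10 and 13.0. These 3 genes were lowest in old PBS by a wide margin. Bst2, the membrane protein tetherin, was at 229, 75.3 and 126 CPM (0.329, 0.287 to 0.376, with age and 1.67, 1.45 to 1.93, with treatment). Irf7, an interferon regulatory factor, was at 32.0, 6.90 and 19.4 CPM. For both, old rMETRNL lay between the other libraries.

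The list also holds genes of antigen presentation. H2-D1, a class I molecule with close relatives among which reads may be split, was at 199, 159 and 183 CPM. B2m, its light chain, was at 298, 252 and 232 CPM, and was lower in both old libraries. H2-K1, another class I molecule, was at 103, 70.5 and 88.5 CPM. Of the immunoproteasome subunits, Psmb8 was at 45.9, 24.3 and 35.02 CPM, a ratio of 0.529 with age, and Psmb9 was at 26.7, 16.8 and 16.4 CPM, a ratio of 0.629 (0.459 to 0.850) with age and 0.977 (0.708 to 1.36) with treatment. Cxcl10, a chemokine, was highest in old rMETRNL at 149 CPM, but 1 cell held 38.4% of its UMIs there.

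**Figure D3:**
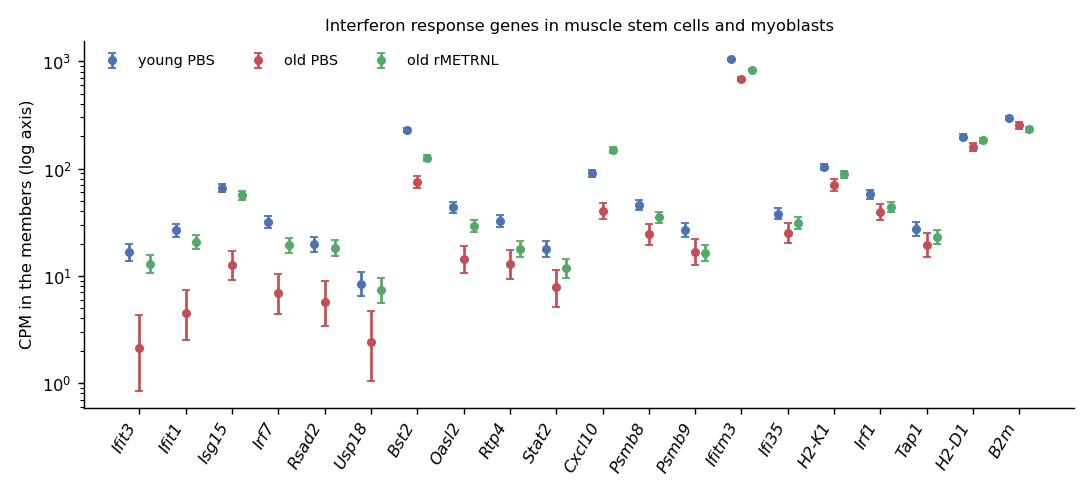
Level of 20 of the 21 measured interferon response genes in muscle stem cells and myoblasts (CPM, log axis) by library, with exact 95% Poisson intervals, ordered by the ratio of old PBS to young PBS. Old PBS lies below young PBS for every gene shown, from Ifit3 at 2.10 against 16.5 CPM to B2m at 252 against 298.

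With age the difference in the list's UMIs per cell was seen across the cells, and with treatment in the upper part of the range. Ifitm3 gave more of these UMIs than any other gene, at 1050, 685 and 833 of the list's 2500, 1505 and 2008 CPM. The sum per cell is thus weighted towards Ifitm3 and not towards genes of large ratio such as Isg15. In members thinned to 5000 UMIs, the list gave a median of 11 UMIs per cell (quartiles 6 and 19), 7 (4 and 10) and 7 (4 and 14). Cells with at least 20 such UMIs were 23.3% (18.0 to 29.3), 6.14% (2.50 to 12.2) and 11.6% (7.86 to 16.4). The old rMETRNL library thus had the median of old PBS and a longer upper tail, with a highest cell at 126 UMIs against 24. An Isg15 UMI was found in 23.3%, 5.26% and 14.1% of members. The cell with the most held 2.08%, 2.54% and 4.69% of the list's UMIs.

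**Figure D4:**
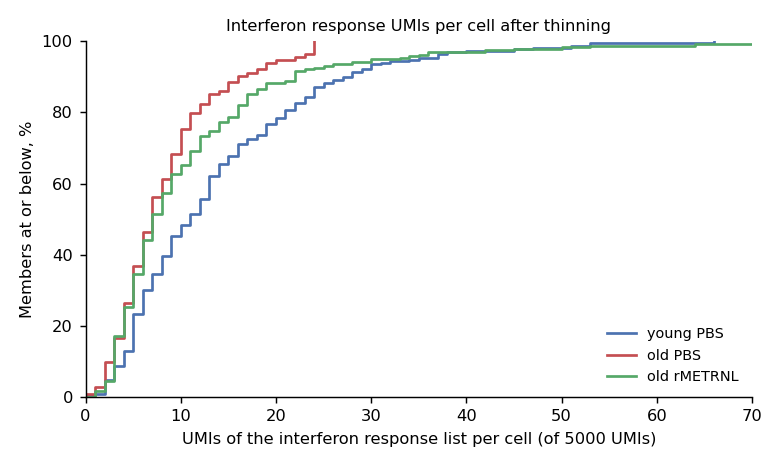
Cumulative share of members (%) by UMIs of the interferon response list per cell after thinning to 5000 UMIs, 1 line per library, with the axis ending at 70 UMIs. The young PBS line lies to the right of the others at the median (11 against 7 and 7 UMIs), and the highest old PBS cell has 24.

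Interferon response genes were lower in cycling than in not cycling members, by at least 1.5-fold for 16, 10 and 12 of 21, beside 16.9%, 21% and 21.8% of all genes, and higher by that fold for 0, 2 and 1. The 1 in old rMETRNL was Cxcl10, chosen after its values were seen, at 199.9 CPM in cycling and 63.7 CPM in not cycling members. In cycling and not cycling members Isg15 was at 42.1 and 119 CPM, 5.47 and 26.4 CPM, and 53.5 and 72.04 CPM. The age ratio held in both states. Among cycling members 12 of 21 genes were lower with age (6.68% of all genes) and 11 higher with treatment (4.83%). Among not cycling members 18 were lower with age (10.9% of all genes) and 16 higher with treatment (10.4%).

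The same list was read in other cells of these libraries, with sums per cell again weighted towards genes of high level. Ifitm3 was at 665, 720 and 626 CPM in Myog-high muscle cells. Per thinned cell, the mean was 13.7, 8.28 and 11.1 UMIs in the members, 83, 61.7 and 72.3 in Ptprc-positive cells, and 7.64, 8.17 and 7.25 in Myog-high muscle cells, where 1 of the 36 old PBS cells held 13.6% of the list's UMIs. In Ptprc-positive cells 17 of 22 genes were lower with age (9.35% of all genes) and 13 higher with treatment (5.74%), with medians of -0.97 and 0.64. In Pdgfra-positive cells 6 of 22 were lower with age (5.44%), while with treatment none was higher or lower (3.16% and 3.19% of all genes), with a median of 0.14. In Myog-high muscle cells 4 of 16 were lower and 2 higher with age (7.43% and 4.78%), and 4 were lower and 3 higher with treatment (5.88% and 8.45%), with a median of -0.11. The differences from the members were not tested. An Isg15 UMI was found in 47.6%, 28.2% and 43.9% of thinned Ptprc-positive cells. As to free RNA from such cells, the members held a median of 18.9%, 10.7% and 17.2% of the other cells' level of the list, and 1.11%, 1.49% and 1.66% of their level of 12 macrophage markers, among which Spp1 stood highest at 35.04%, 36.3% and 39.1%. The FAP markers, summed above, were at 8880 CPM over the other cells. The part of free RNA in the interferon values was not tested. Subtracting the macrophage percentage of the other cells' level from each gene was an alternative chosen after seeing the data. It was among the 14 alternatives behind the range given above, so its medians lie within that range by construction.

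Most glycolysis genes differed by less than 1.5-fold. The median log2 ratio was -0.32 with age, with 13 of 17 genes below 0, 4 above it and 2 lower by 1.5-fold. With treatment it was 0.20, with 15 of 17 above 0 and 2 higher by that fold. Slc16a3, a lactate exporter, was at 23.5, 3.30 and 15.5 CPM (0.141, 0.0690 to 0.258, with age and 4.70, 2.54 to 9.67, with treatment). Slc2a1, the glucose transporter GLUT1, was at 30.7, 17.1 and 26.8 CPM, and Ldha at 709, 523 and 751. Each was lowest in old PBS, where Hk2, a hexokinase, was highest (78.0, 104 and 86.5 CPM).

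Heat shock and immediate early genes, which also respond to tissue dissociation, moved in both directions, with 2 of 23 higher and 5 lower with age and 4 higher and 3 lower with treatment. The chaperone genes Hspa1a (776, 423 and 925 CPM), whose reads can be split with its near-identical copy Hspa1b, Hspb1 (707, 454 and 1003 CPM) and Dnajb1 (185, 110 and 224 CPM) were lowest in old PBS, where 1 cell held 17.5% of the Hspa1a UMIs. Hspa1a was likewise lowest in the other cells of old PBS, at 1356, 777 and 1461 CPM. The transcription factors Fosb (89.4, 146 and 90.9 CPM) and Klf4 (102, 163 and 116 CPM) were highest in old PBS. Handling of the tissue and the group cannot be told apart with 1 library each.

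Matrix and basal lamina genes had medians of -0.17 with age and -0.14 with treatment, with 4 of 25 lower with age and 2 higher and 3 lower with treatment. The treatment median turned to 0.46 under the stricter limit on genes and mitochondrial UMIs, and it was -0.14 in cycling and 0.18 in not cycling members. Sparc, a matrix-binding protein, was at 1050, 917 and 833 CPM, and Col1a2, a collagen I chain, at 991, 883 and 841. Both were somewhat lower in the old libraries. Dcn, the proteoglycan decorin, was at 126, 153 and 29.9 CPM, but 1 cell held 80.0% of its UMIs in old PBS, and without the members of high UMI count or with RNA of other types its log2 ratio with treatment was 0.13. Of 25 genes, 22 were higher in the other cells than in the members.

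Ribosome biogenesis genes, which rise with growth, had medians of 0.11 and 0.14, with 1 of 19 higher by 1.5-fold with treatment, the polymerase I subunit gene Polr1b, and none with age. Myc, a driver of these genes, was at 98.4, 146 and 98.5 CPM, ratios of 1.48 (1.32 to 1.66) and 0.676 (0.602 to 0.758). TNF, apoptosis and p53 genes had medians of 0.08 and -0.03, and 1 of 23 was lower with age and higher with treatment. This was Gdf15, a stress cytokine, at 51.5, 27.6 and 51.4 CPM.

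**Figure D5:**
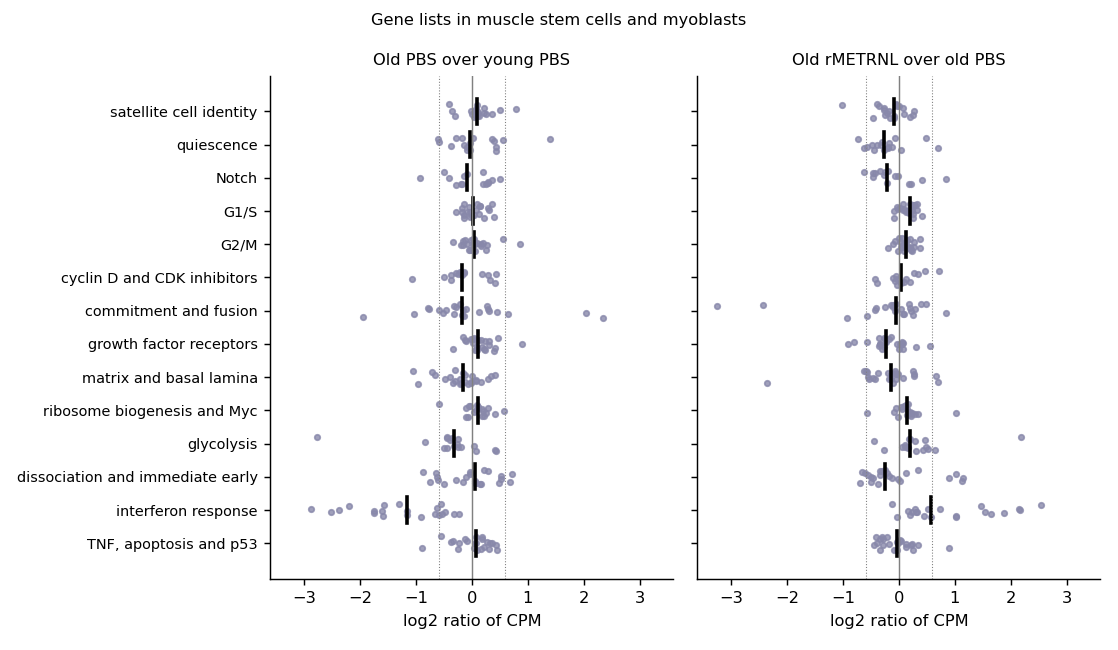
log2 ratio of CPM for each measured gene of 14 lists (points, with vertical scatter for legibility) with the list median (black bar), for old PBS over young PBS (left) and old rMETRNL over old PBS (right). Dotted lines mark 1.5-fold, and the interferon response list has medians of -1.16 and 0.58 while the G2/M list has 0.03 and 0.13.

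Outside the lists, the genes with the largest ratios were taken among those higher in the members than in other cells and not carried by 1 cell. Timp3, an inhibitor of metalloproteinases, led those higher with age. It was at 206 CPM (196 to 217), 463 (440 to 486) and 182 (172 to 191), ratios of 2.24 (2.09 to 2.41) with age and 0.392 (0.365 to 0.422) with treatment. Old PBS was the library that stood apart, and it did so in cycling members (105, 175 and 86.0 CPM) and in not cycling members (399, 879 and 378 CPM). Itih5, a hyaluronan-binding matrix protein, was at 67.1, 137 and 57.9 CPM. Prkg2, a cGMP-dependent kinase, was at 20.9, 46.8 and 35.5 CPM, and Mbd2, which binds methylated DNA, at 46.6, 101 and 111. Mbd2 was thus high in both old libraries.

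Lower with age were Igfbp2, which binds insulin-like growth factors, at 47.0, 14.1 and 53.4 CPM (0.300, 0.216 to 0.407, with age and 3.78, 2.79 to 5.23, with treatment), and Snai1, a transcription factor of the Snail family, at 24, 6.30 and 14.1. Igfbp2 differed between the libraries chiefly in cycling members, at 61.7, 13.9 and 72.2 CPM, against 22.5, 23.7 and 11.2 in not cycling members. Tubb3, a neuronal-type tubulin, was at 20.6, 6.0 and 17.8 CPM, and Gins1, a subunit of the replicative helicase, at 11.5, 5.40 and 12.7. All 4 were lowest in old PBS.

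Among genes lower with treatment, besides Timp3 and Itih5, Cited1, a transcriptional coactivator, was at 32.3, 47.1 and 21.6 CPM (0.457, 0.366 to 0.572) and Mapre3, a microtubule end-binding protein, at 12, 22.2 and 10.5. Of the leading genes of the members, Gal, the neuropeptide galanin, was at 438, 267 and 540 CPM (0.608, 0.564 to 0.655, with age and 2.02, 1.88 to 2.18, with treatment). Its level in the other cells was 45.0, 15.5 and 45.7 CPM, and so was also lowest in old PBS. Metrnl itself, named because the protein was injected, was at 19.8, 22.2 and 17.4 CPM in the members, against 134, 164 and 161 in the other cells, and both ratios had intervals that held 1.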

How the data were processed

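The authors prepared a cell suspension from each group's muscles and deposited raw UMI counts for every gene in every barcode, made with Cell Ranger (5.0.0 per the file headers; the submitters' processing notes list 3.1.0 and 5.0.0, and which was used was not settled here) and aligned to mm10 per those notes. Total counts were 218059089 for young PBS, 179295668 for old PBS and 228966697 for old rMETRNL, of which the members held 7334164, 3332806 and 7795802.

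Barcodes were kept from 500 detected genes and with a mitochondrial share under 10%. No doublet caller was run; the rule excludes cells with immune, endothelial or FAP transcripts, and an alternative left out members with over 1% of UMIs from markers of other types or over 3 times the median UMI count. Counts of a repeated symbol (78 of 32285 features) were summed; 99.6% of gene IDs matched GENCODE M21 (GRCm38).

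UMIs were summed over the members of a library and scaled to CPM. To form log2 ratios 0.5 was added per count, and 9370 genes reaching 100 UMIs over all libraries were compared. Poisson intervals of levels and Clopper-Pearson intervals of shares are exact, and ratios an exact interval given the summed count. Cells under 5000 UMIs (1, 3 and 5 members) were left out of thinned values. Named genes were those of the rule, the marker Fgfr4, in each list the 4 with most UMIs and the 2 largest ratios in each direction, the 10 largest ratios in each direction at 200 UMIs, not over 10% in 1 cell and higher than in other cells, and 15 leading genes; from these the text gives a selection, and the values of 1 interferon response gene are not reported here, though it is counted in its list. The members and lists were chosen with earlier results of these data known. Scripts were tested on simulated data. Python 3.11.15, numpy 2.4.6, scipy 1.17.1, pandas 2.3.3 and matplotlib 3.10.9 were used.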

Additional observations from a re-analysis of the deposited data

Results flagged for a closer look

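Barcodes that met the muscle stem cell and myoblast rule but had at least 10% mitochondrial UMIs, and so were outside every comparison, numbered 54 for young PBS, 28 for old PBS and 24 for old rMETRNL. Myog-high muscle cells and the members lay on opposite sides of 0 for 2 gene lists with age. The G2/M median log2 ratio was 0.029 in the members and -0.92 in Myog-high cells. For interferon response genes it was -1.16 in the members and 0.079 in Myog-high cells, of which old PBS had 36. These differences were not tested, since each group had 1 library.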

How the results depend on the processing

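No paired analysis was possible because each group had 1 library. With the limit of at least 1000 genes and under 5% mitochondrial UMIs (50, 22 and 88 members), the share ratio was 3.24 for old rMETRNL over old PBS and 1.65 for old rMETRNL over young PBS. The median log2 ratios with age were then -0.26 for G2/M, -0.38 for matrix and -0.72 for interferon response genes. Of the last, 10 of 16 were lower by at least 1.5-fold. The share of all 6460 genes compared under this limit that were lower is not given here, so that count is a description only. With treatment the median log2 ratios were 0.22 for quiescence, 0.46 for matrix, -0.075 for ribosome biogenesis and 0.16 for dissociation genes. The log2 ratios of Capn6 (0.10) and Osmr (0.088) turned with treatment. The cause was not tested, beyond there being fewer cells. Without members of high UMI count or with RNA of other types, Ckm (0.47) and Dcn (0.13) turned with treatment.

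With a minimum of 20 UMIs, which tests 12299 genes, 1008 were higher and 942 lower with age and 792 higher and 1085 lower with treatment. With a minimum of 500 UMIs (4691 genes) these were 65, 67, 55 and 57, with 8 and 5 of 12 interferon response genes. At 2-fold they were 56, 94, 68 and 66, against 332, 361, 299 and 363 as reported. Averaging over cells gave 543 genes higher with age and a dissociation median of -0.0085 with treatment. Without the cell with the most UMIs of each gene, an alternative chosen after seeing the data, that list's age median was -0.13. The share ratio ranged from 0.452 to 0.579 with age and from 1.71 to 3.24 with treatment, and the cycling ratio from 0.748 to 1.08 and from 0.993 to 1.22. Counting more Ptprc UMIs, another alternative added after seeing the data, turned none of the named genes. Old PBS had the fewest members, 117.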
